A study of Mus musculus with 16 samples.

Results

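Proteasome subunit genes were followed through RNA sequencing of kidney and liver from aged mice. Members were all genes whose symbol in the count tables starts with Psm, 1 of the letters a to g, and a number. The rule found 50 of the 24984 genes, and all 50 had at least 1 count among the 16 libraries. It takes subunits of the core and of its regulators, dedicated chaperones that assemble them, and 2 genes that only share such a name.

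The series asks what the transcription factor AP-1, of which Fos is a subunit, does to inflammatory gene expression in old kidney and liver. All mice were C57BL/6, WT and labelled as 24 months old. They had received an AAV8 vector with a short hairpin RNA against Fos (shFOS in the labels, shFos here) or a non-targeting one (shNT in the labels, NT here). The methods of the study give female mice, injection into a vein at 24 months and tissue collection 3 months later. There were 4 libraries in each of 4 groups, NT kidney, shFos kidney, NT liver and shFos liver, and neither young nor uninjected mice were among them. Counted reads ranged from 14194543 to 15534665 per kidney library and from 16652150 to 18300277 per liver library. At this depth a count of 0 allows up to 0.138 to 0.161 CPM in kidney and 0.219 to 0.277 CPM in liver (3 counts of the library, scaled), a limit that covers counting error only. CPM are counts scaled to library size with edgeR's TMM factors over the 16 libraries.

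Fos, the target of the hairpin, was at 4.72, 3.66, 2.99 and 3.83 CPM in NT kidneys 1 to 4, and at 1.85, 2.95, 2.72 and 1.61 CPM in shFos kidneys 1 to 4. Each shFos kidney was below each NT kidney, by a small margin between NT kidney 3 and shFos kidney 2. The log2 fold change of shFos against NT was -0.73 (standard error, SE, 0.25; edgeR adjusted p = 0.0947) and was not called at an adjusted p under 0.05. DESeq2 called it (adjusted p = 0.0425, the lowest of a range of 0.0425 to 0.244 over the alternatives). In liver, Fos was at 1.57, 3.34, 5.19 and 4.05 CPM in NT libraries and at 2.31, 2.13, 3.86 and 1.97 CPM in shFos libraries. The liver groups overlapped (log2 fold change -0.47, SE 0.38, adjusted p = 0.775, range 0.530 to 0.956; -0.75 to -0.23 with a library left out). Between the NT groups of kidney and liver Fos had a difference of 0.10 (SE 0.33, adjusted p = 0.807; -0.01 with an offset for GC content and length, and 1.11 with an adjusted p of 0.00885 with library totals), and the effects in kidney and liver differed by -0.27 (SE 0.47, adjusted p = 0.825; -0.51 to -0.00188 with a library left out). All p-values given here compare a difference with the spread between samples.

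The tissue labels were checked against markers. The 8 markers of kidney tubule and podocyte, of which Umod was the most abundant, summed to 8055 to 12221 CPM in kidney libraries and to 1.14 to 3.32 CPM in liver libraries. Alb, the most abundant hepatocyte marker, was at 22.1 to 145 CPM in kidney and at 38702 to 237912 CPM in liver. Several libraries stood apart from the rest of their groups. Chi-square per degree of freedom between libraries was 334 to 431 for liver NT 4 against the other NT livers, where the pairs among those 3 gave 40.7 to 60.2. For kidney NT 4 it was 63.6 to 67.7, where the other NT kidneys gave 7.17 to 13.0 among themselves. Liver shFos 3 had 55.7 to 72.5 against the other shFos livers, where those gave 19.9 to 25.5. Among the shFos kidneys the pairs gave 22.0 to 58.5, the highest of them with number 3. Liver NT 4 had the lowest Alb and the highest S100a8 and S100a9 (52.1 and 72.9 CPM), neutrophil genes. Kidney NT 4 had the lowest leukocyte sum, 195 CPM where the other NT kidneys had 497 to 575 CPM. Its Serpina1a, a hepatocyte gene, was at 229.7 CPM, where the other NT kidneys had 7.97 to 11.3 CPM. S100a8, S100a9 and Serpina1a were picked after their values were seen.

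As background, the proteasome degrades proteins that carry ubiquitin. Its core is a barrel of outer alpha rings (Psma genes) and inner beta rings (Psmb genes), and the products of Psmb5, Psmb6 and Psmb7 carry the catalytic sites. A regulatory particle of ATPases (Psmc genes) and other subunits (most Psmd genes) recognises, unfolds and feeds in the substrate. Interferon-gamma induces Psmb8, Psmb9 and Psmb10, whose products replace those of Psmb5, Psmb6 and Psmb7 in newly made cores, and also Psme1 and Psme2, the subunits of an activator that binds the core without ATP. The immunoproteasome formed this way shapes the peptides presented on MHC class I, and leukocytes carry it constitutively. Assembly uses chaperones, encoded by Psmg1 to Psmg4 for the core and by Psmd5, Psmd9 and Psmd10 for the base of the regulatory particle.

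Several members lie side by side in the genome (GENCODE M21, mm10). Psmb8 (chr17:34197721-34201454) and Psmb9 (chr17:34181987-34187764) sit in the MHC region, on either side of the peptide transporter gene Tap1. Psme1 (chr14:55578123-55581529) and Psme2 (chr14:55587441-55591113) are neighbours too, while Psmb10 lies alone on chr8:105935735-105938444. Reads were counted without regard to strand, and 9 members share exon sequence with another counted gene, among them Psmb9 with Tap1 by up to 212 bases and Psme1 with Emc9 by up to 7 bases.

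Promoter windows were searched for short motifs. RefSeq windows of 300 bases on GRCm38.p6, from 250 bases before to 50 bases after the start of a gene, exist for 42 of the 50 members. The start is the RefSeq one and can differ from the GENCODE start. The windows of Psmb8, Psme1 and Psmd9, for example, lie wholly inside the gene as GENCODE places it. There is none for Psma8, Psmb1, Psmb2, Psmb7, Psmc3, Psmd3, Psmd7 or Psmg2. Both strands were searched for 4 motifs. TGANTCA, the AP-1 site, was in the windows of 2 members (4.76%), Psmb5 and Psmd9, against 8.97% of all genes with a window. TGACNNNGC, the core of the antioxidant response element, was in 6 members (14.3%, against 14.0% of all genes): Psmb5, Psmb6, Psmc6, Psmd9, Psmd12 and Psme4. TTCNNNGAA, the interferon-gamma activated site, was in 3 members (7.14%, against 9.55%): Psmb8, Psmd2 and Psmg1. The core of the interferon-stimulated response element was in 5 members (11.9%, against 3.99%): Psmb3, Psmd4, Psmd9, Psme1 and Psmg4. Of the immunoproteasome genes, Psmb8 and Psme1 held a match, and the windows of Psmb9, Psmb10 and Psme2 held none of the 4. A match is a run of letters, not a bound site.

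The windows of Psmb8 (chr17:34197945-34198244, + strand) and Psme1 (chr14:55578244-55578543, + strand) are shown because they are the only immunoproteasome windows with a match. Psmb9, Psmb10 and Psme2 had the same highest and lowest NT libraries as these genes, but their windows held no match and are not shown. Those of Psmb5 (chr14:54617946-54618245, - strand) and Psmd9 (chr5:123227940-123228239, + strand) are the only member windows with an AP-1 match. That of Psme4 (chr11:30771525-30771824, + strand) belongs to the member with the largest difference between shFos and NT kidneys. Each runs 5′ to 3′ along its gene. Capitals mark the interferon-gamma activated site in Psmb8 and the interferon-stimulated core, on the other strand, in Psme1. In Psmb5 they mark first the antioxidant core and then the AP-1 site. In Psmd9 they mark, in order, the interferon-stimulated core, the AP-1 site and the antioxidant core. In Psme4 they mark the antioxidant core on the other strand. No marked match overlaps another.
Psmb8: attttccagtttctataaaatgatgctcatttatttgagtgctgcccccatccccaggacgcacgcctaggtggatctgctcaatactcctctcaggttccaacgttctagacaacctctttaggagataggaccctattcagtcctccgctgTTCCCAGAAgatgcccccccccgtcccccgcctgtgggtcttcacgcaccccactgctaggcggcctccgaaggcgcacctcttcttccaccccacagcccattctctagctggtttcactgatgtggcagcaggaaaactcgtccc
Psme1: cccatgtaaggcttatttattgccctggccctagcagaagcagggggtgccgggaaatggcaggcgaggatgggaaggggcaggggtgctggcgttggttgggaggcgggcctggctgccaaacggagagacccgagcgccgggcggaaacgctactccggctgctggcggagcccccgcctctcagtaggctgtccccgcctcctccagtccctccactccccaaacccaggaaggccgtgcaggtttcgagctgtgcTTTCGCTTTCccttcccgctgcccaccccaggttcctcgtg
Psmb5: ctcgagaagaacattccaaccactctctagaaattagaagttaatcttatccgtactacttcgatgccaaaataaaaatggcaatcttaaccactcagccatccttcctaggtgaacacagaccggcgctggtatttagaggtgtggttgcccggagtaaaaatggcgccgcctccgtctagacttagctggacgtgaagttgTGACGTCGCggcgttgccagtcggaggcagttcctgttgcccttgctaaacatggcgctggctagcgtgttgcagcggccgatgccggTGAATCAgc
Psmd9: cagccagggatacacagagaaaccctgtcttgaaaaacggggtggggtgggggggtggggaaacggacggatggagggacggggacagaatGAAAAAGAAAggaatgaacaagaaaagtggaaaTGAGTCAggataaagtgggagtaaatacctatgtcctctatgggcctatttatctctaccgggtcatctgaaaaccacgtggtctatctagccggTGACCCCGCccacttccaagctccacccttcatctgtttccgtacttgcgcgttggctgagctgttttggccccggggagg
Psme4: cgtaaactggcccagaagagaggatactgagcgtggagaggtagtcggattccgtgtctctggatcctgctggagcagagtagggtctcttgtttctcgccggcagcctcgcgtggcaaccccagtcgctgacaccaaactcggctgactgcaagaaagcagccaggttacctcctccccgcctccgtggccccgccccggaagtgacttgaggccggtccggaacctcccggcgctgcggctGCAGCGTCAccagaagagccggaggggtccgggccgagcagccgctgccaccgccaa

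Levels were compared between genes per length, as CPM per kilobase of transcript. Psmb6, whose product carries the caspase-like site, had the highest mean of all members in every group: 113 ± 8.14 (SD, n = 4) in NT kidney, 108 ± 3.88 in shFos kidney, 198 ± 14.5 in NT liver and 193 ± 6.87 in shFos liver. In NT kidney it was followed by the ring subunits Psmb3 (93.4 ± 7.65), Psma4 (90.3 ± 4.13) and Psma7 (77.3 ± 11.6). Psme1 came next (74.7 ± 18.7), within its SD of Psma7, and in liver it was second (187 ± 54.8 in NT). The other catalytic genes stood lower, Psmb7 at 50.8 ± 3.67 and Psmb5 at 44.1 ± 4.22 in NT kidney. Chaperones of assembly were among the lower members, from Psmd5 at 7.22 ± 0.414 to Psmg4 at 18.5 in NT kidney. The immunoproteasome catalytic genes lay in much the same range, Psmb8 at 18.7 ± 11.8, Psmb10 at 16.7 ± 9.19 and Psmb9 at 10.6 ± 7.48, and their SD was the widest of the catalytic genes relative to the mean.

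**Figure D1:**
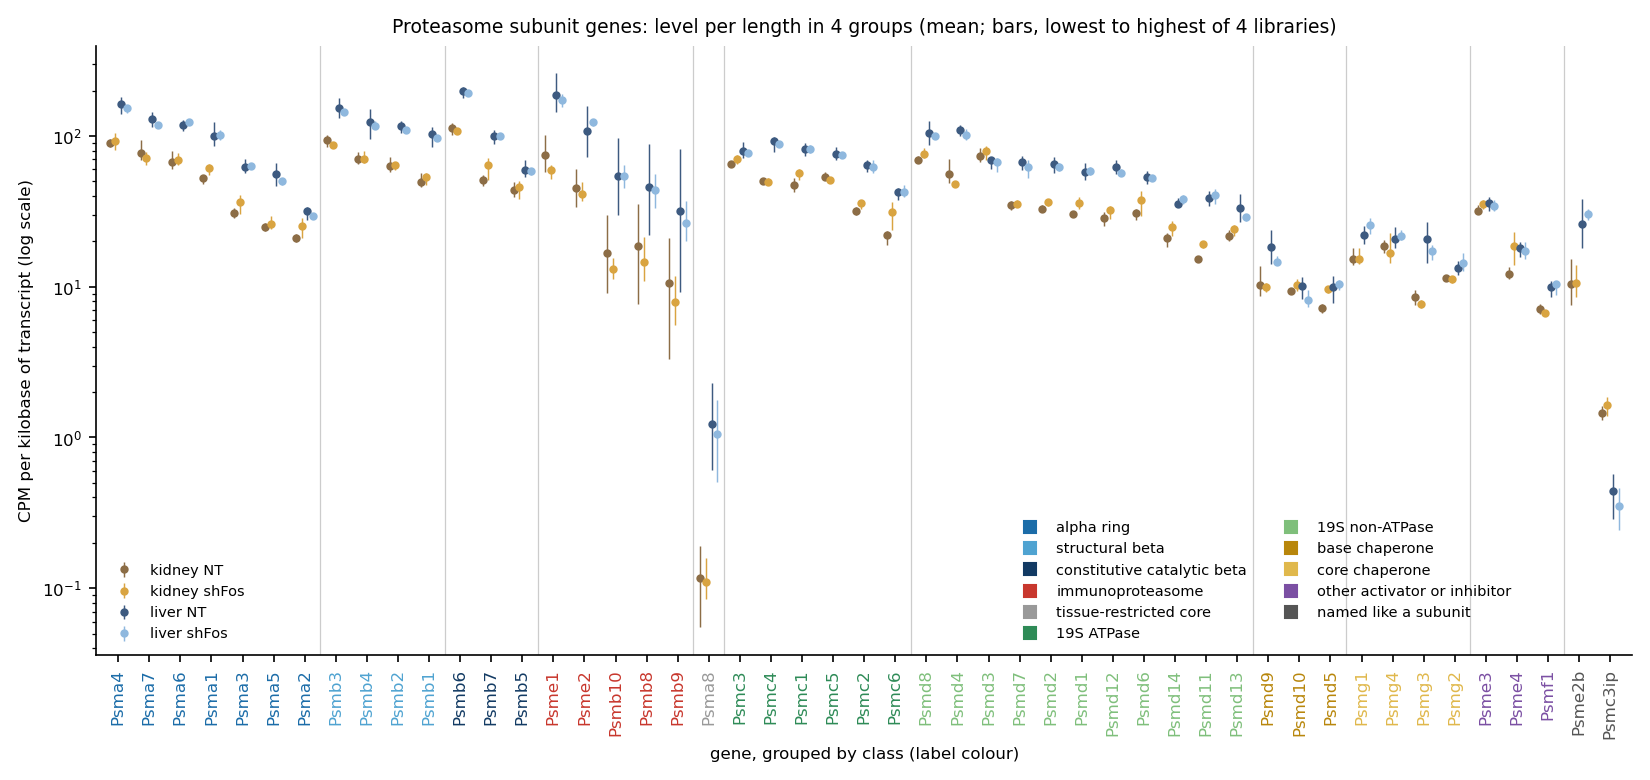
Mean level (y axis, CPM per kilobase of transcript, log scale) of 49 members in the 4 groups (n = 4 each), with bars from the lowest to the highest library and genes grouped by class on the x axis; Psmb11 is left out because it is at 0 in most libraries. Most classes sit lower in kidney than in liver at TMM scaling, while with library totals 24 members are called higher in kidney (75.2% of all genes are) and 2 lower (9.79%); bars are long for Psma8 and, in the NT groups, for Psmb8, Psmb9 and Psmb10.

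NT kidneys were compared with NT livers to describe the members by tissue. With TMM scaling most members were lower in kidney. Of 49 members tested, 43 were called lower in kidney (30.2% of all 15421 genes were) and 1 was called higher (34.5% of all genes were), by edgeR at an adjusted p under 0.05 over all genes. These counts include Psma8 (lower) and Psmc3ip (higher), which passed the filter on low counts only through the tissue where they are high. In 41 members, Psma8 again among them, each NT kidney was below each NT liver, which holds for 24.7% of all genes. The median log2 difference of kidney minus liver was -0.83 over members and 0.05 over all genes tested. Its size depends on the scaling: with library totals and no TMM factor the median over all genes moved to 1.10 and that over members to 0.22, and then 24 members were called higher (75.2% of all genes were) and 2 lower (9.79%). Relative to the median of all genes the members stood at -0.89 with TMM, at -0.88 with library totals and between -0.77 and -0.97 over all alternatives. The TMM factors themselves were 0.626 to 0.783 in liver and 1.32 to 1.48 in kidney.

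By role, all 7 alpha ring genes (median -0.84), all 4 structural beta genes (-0.84), all 6 ATPases (-0.84) and 10 of the 11 other regulatory particle subunits (-0.93) were called lower in kidney with TMM. The largest difference among them was that of Psmd11, a lid subunit that limits assembly of the regulatory particle. Psmd11 was at 45.5, 41.8, 44.3 and 42.6 CPM in the NT kidneys and at 122, 109, 112.5 and 98.4 CPM in the NT livers. No NT kidney overlapped an NT liver (log2 difference -1.34, SE 0.09, adjusted p = 3.03e-09; -0.29 and adjusted p = 0.00740 with library totals). Psma5, an alpha ring subunit, was lower by a similar ratio (-1.16, SE 0.10, adjusted p = 7.58e-08; -0.10, not called, with library totals), as was the ATPase Psmc2 (-1.02, SE 0.09, adjusted p = 6.92e-08; 0.03 with library totals). Psmd3, a lid subunit as well, was the exception among the regulatory subunits. It was at 162, 151, 179 and 145 CPM in NT kidneys and at 157, 156, 130.4 and 155 CPM in NT livers, groups that overlap (0.09, SE 0.11, adjusted p = 0.478; -0.23 with an offset for GC content and length, 0.25 and called with upper-quartile scaling, and 1.15 with an adjusted p of 1.01e-07 with library totals).

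Of the catalytic genes, Psmb6 was at 81.6, 92.1, 88.9 and 97.1 CPM in NT kidneys and at 169, 165, 143 and 155 CPM in NT livers. The groups lie far apart for a gene of so little spread (log2 difference -0.81, SE 0.09, adjusted p = 4.79e-07; 0.24 with library totals). Psmb7, with the trypsin-like site, had -0.97 (SE 0.11, adjusted p = 1.22e-06; 0.09 with library totals), and Psmb5, with the chymotrypsin-like site, had -0.42 (SE 0.11, adjusted p = 0.00223; 0.62 with library totals). Of the 3 base chaperones 2 were called lower with TMM (median -0.47) and of the 4 core chaperones 2 (median -0.39).

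All 5 immunoproteasome genes were called lower in kidney with TMM, with a class median of -1.32. With library totals none was called and the differences were much smaller. They were then -0.25 for Psme1, -0.19 for Psme2, -0.62 for Psmb10, -0.23 for Psmb8 and -0.51 for Psmb9. Psme1 had -1.32 (SE 0.19, adjusted p = 1.80e-05), Psme2 -1.25 (SE 0.20, adjusted p = 5.58e-05) and Psmb10 -1.69 (SE 0.35, adjusted p = 0.000520). For Psmb8 (-1.30, SE 0.43, adjusted p = 0.0150) the call was lost without liver NT 2, in a fit of the 8 NT libraries (-1.28, adjusted p = 0.0613) and with library totals. Without liver NT 2 its difference was -0.77 (adjusted p = 0.0971, range over the alternatives 0.000205 to 0.613). Psmb9 (-1.57, SE 0.60, adjusted p = 0.0313) had -0.47 without liver NT 2 (adjusted p = 0.392, range 0.00177 to 0.428). It also lost the call without kidney NT 1 (adjusted p = 0.0784), kidney NT 3 (0.0669) or kidney NT 4 (0.0809), with upper-quartile scaling (0.0534) and in the fit of the 8 NT libraries (0.105). A block on the replicate number was not among the settings that lost either call. With TMM, Psmb8 and Psmb9 were lower in each NT kidney than in the NT liver of the same number.

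Regulators outside the regulatory particle were tested too. Psme3, which forms a nuclear activator, was not called (-0.16, SE 0.09, adjusted p = 0.161; 0.01 with upper-quartile scaling), but was called lower with the offset for GC content and length (-0.27, adjusted p = 0.0269) and higher with library totals (0.89, adjusted p = 3.57e-07). Psme4, a large activator that opens the core by itself, was lower in kidney (-0.56, SE 0.14, adjusted p = 0.00225; 0.49 with library totals), as was Psmf1, an inhibitor of the core (-0.50, SE 0.10, adjusted p = 0.000278; 0.55 with library totals). Psme2b, a copy of Psme2 without introns, was lower too (-1.32, SE 0.24, adjusted p = 0.000163; -0.26, not called, with library totals).

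**Figure D2:**
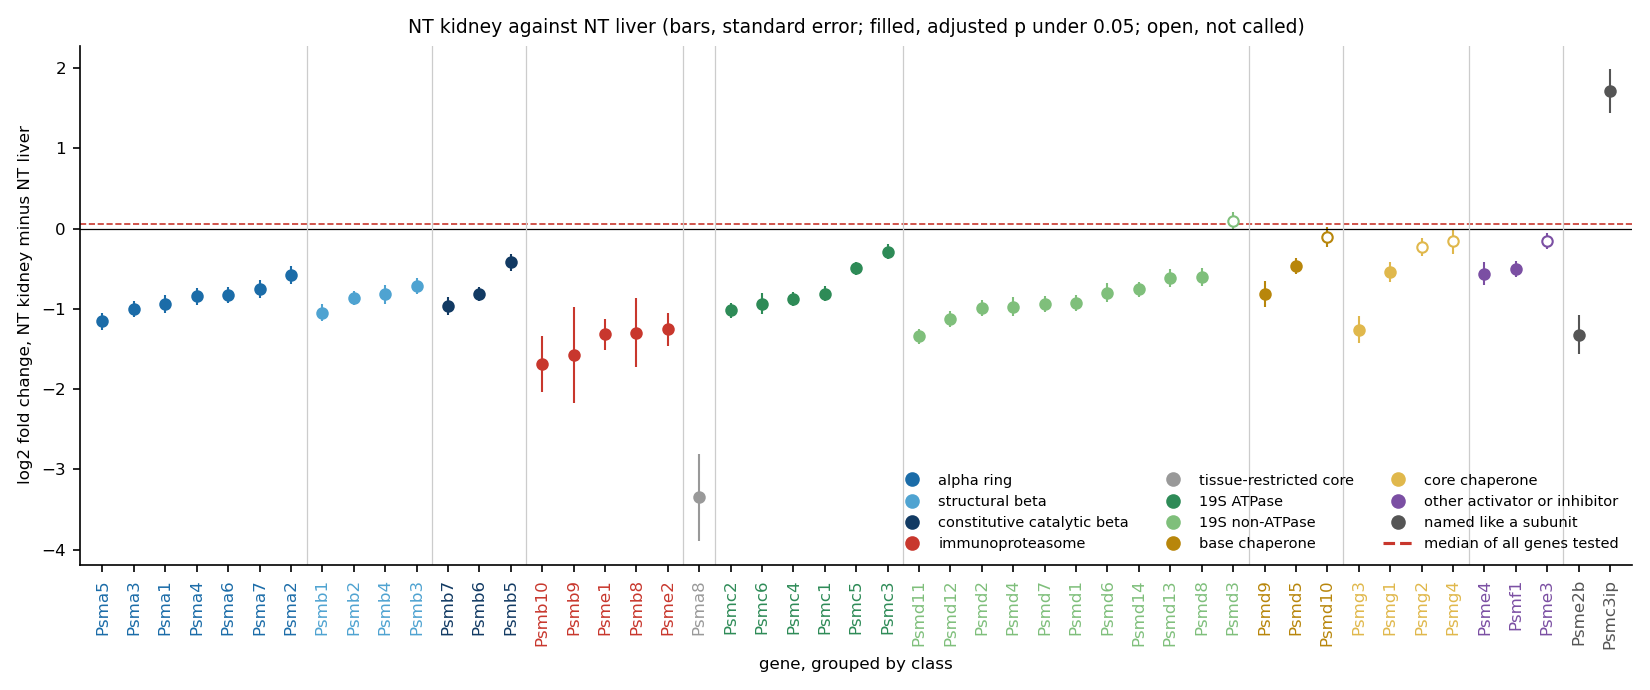
Log2 difference of NT kidney minus NT liver (y axis) for the 49 members tested, grouped by class on the x axis, with bars for the standard error, filled points for an adjusted p under 0.05 and a dashed line for the median of all genes. At TMM scaling 43 members lie below 0 and are called, among them Psma8, which like Psmc3ip, the point called higher, passed the filter on low counts only through the tissue where it is high; with library totals the median of all genes moves to 1.10 and 24 members are called higher (75.2% of all genes are).

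Psma8 and Psmb11 encode core subunits restricted to other organs, the testis and the thymic cortex. Psma8 had 14 to 48 counts in NT livers and 2 to 7 counts in NT kidneys. Its levels were 1.38, 3.91, 1.02 and 2.02 CPM in NT livers against 0.324, 0.0938, 0.230 and 0.140 CPM in NT kidneys, and each liver was above each kidney. It passed the filter on low counts only through liver, where it is high, so its fold change and p are no evidence of a difference. Psmb11 had at most 2 counts in any library and was not detectable at this depth in 13 of them. Psmc3ip, a gene of meiotic recombination named for a contact with Psmc3, passed that filter only through kidney, where it is high. It was at 2.08, 1.78, 1.93 and 1.68 CPM in NT kidneys and at 0.738, 0.732, 0.439 and 0.375 CPM in NT livers, without overlap. It shares up to 385 bases of exon with Mlx on the other strand, and the part of those reads in the result was not tested.

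Within the NT groups the immunoproteasome genes as a class varied more than members and than all genes. In NT kidneys their median coefficient of variation was 54.9%, where all members had 8.25% and all genes 13.4%. In NT livers it was 54.7%, where members had 11.8% and all genes 20.6%. In shFos kidneys it was 13.7%, where members had 7.91% and all genes 14.0%. In shFos livers it was 14.2%, where members had 6.14% and all genes 13.5%. Constitutive subunits varied less than all genes, with a median of 5.44% for the ATPases and 6.10% for the alpha ring in NT kidneys.

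Psmb8, which replaces Psmb5, was at 25.6, 57.6, 25.8 and 12.6 CPM in NT kidneys 1 to 4 and at 17.8, 23.7, 35.0 and 18.8 CPM in shFos kidneys 1 to 4. In liver it was at 57.3, 144, 62.0 and 35.9 CPM in NT and at 74.5, 90.9, 53.9 and 66.6 CPM in shFos libraries. Among the NT libraries number 2 is the highest and number 4 the lowest in both tissues, and the shFos libraries lie inside the range of their NT group. Psmb9, which replaces Psmb6, was at 10.9, 28.4, 13.5 and 4.48 CPM in NT and at 7.52, 10.6, 15.9 and 8.51 CPM in shFos kidneys. In liver it was at 18.1, 111, 28.9 and 12.5 CPM in NT and at 49.7, 37.9, 27.1 and 29.5 CPM in shFos libraries. Libraries 2 and 4 of NT again mark the extremes in both tissues.

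Psmb10, which replaces Psmb7, was at 19.5, 39.4, 16.9 and 11.9 CPM in NT and at 17.1, 16.1, 20.3 and 14.8 CPM in shFos kidneys, and in liver at 57.3, 127, 59.0 and 39.3 CPM in NT and at 71.3, 83.7, 58.9 and 71.8 CPM in shFos libraries. Psme1 was at 77.1, 113, 78.7 and 63.8 CPM in NT and at 63.7, 71.6, 70.8 and 58.0 CPM in shFos kidneys. In liver it was at 216, 290.3, 163 and 161 CPM in NT and at 192, 211, 172 and 191 CPM in shFos libraries. Psme2 was at 37.1, 53.2, 37.8 and 29.9 CPM in NT and at 33.2, 36.0, 43.3 and 32.7 CPM in shFos kidneys, and its liver values were 91.3, 139, 82.7 and 63.9 CPM in NT and 110.5, 111, 112 and 103 CPM in shFos libraries. For all 3 genes the extremes are those of Psmb8, with NT 2 highest and NT 4 lowest of the NT libraries in kidney and in liver. For Psme1, shFos kidneys 1 and 4 lie below NT 4.

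So among NT libraries all 5 immunoproteasome genes were highest in number 2 of both tissues, which held for 5.71% of the 12727 genes tested in both, and lowest in number 4 of both, which held for 14.5%. Of the 42 other members tested in both tissues, 2 had the first pattern and 2 the second. Psme2b, the copy of Psme2 without introns, had both. Its coefficient of variation was 32.5% in NT kidneys and 33.5% in NT livers. The labels do not say whether a number stands for the same mouse in both tissues. Kidney NT 4 and liver NT 4 are also the libraries that stood apart from their groups, and their part in this order was not tested.

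**Figure D3:**
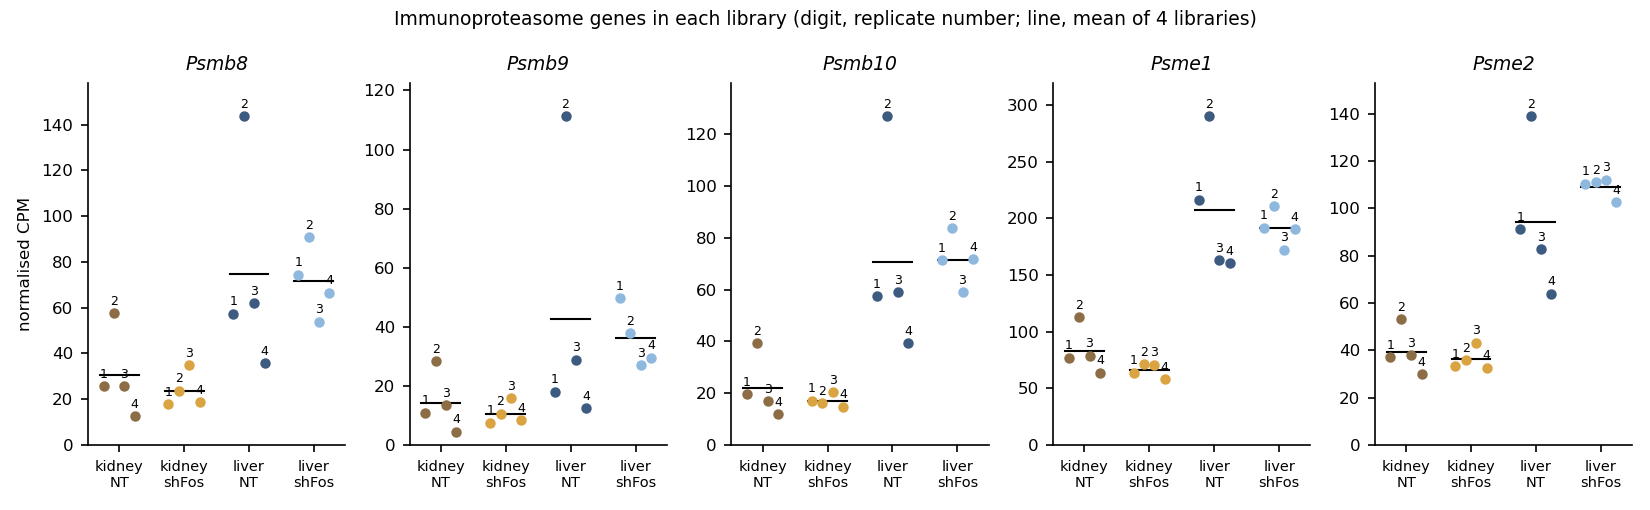
Normalised CPM (y axis) of the 5 immunoproteasome genes in each library of the 4 groups (x axis), with the replicate number above each point and a line at the mean of 4 libraries. In both tissues NT library 2 is the highest and NT library 4 the lowest of the NT libraries for each gene, and in kidney shFos 4 (58.0) lies below NT 4 (63.8) for Psme1.

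Genes of interferon signalling and of the MHC class I pathway moved with them. Of 12 tested in both tissues, 10 were highest in NT library 2 of both and 6 lowest in NT library 4 of both. Their sum, most of it B2m, the light chain of MHC class I, was 1514, 2939, 1448 and 1092 CPM in NT kidneys and 1274, 1645, 1955 and 1286 CPM in shFos kidneys. In liver it was 5724, 10154, 5434 and 3912 CPM in NT and 7329.6, 7305, 6205 and 6643 CPM in shFos libraries. Tap1, the peptide transporter next to Psmb9, was at 67.7 CPM in kidney NT 2 and at 161 CPM in liver NT 2, with the other NT libraries at 17.7 to 25.1 and 30.5 to 43.5 CPM. Ifng itself, the gene of interferon-gamma, had too few counts to be tested, with its highest values, 0.516 and 0.570 CPM, in NT library 2 of kidney and liver.

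The 21 leukocyte markers, of which Lyz2 was the most abundant, summed to 497, 551, 575 and 195 CPM in NT kidneys and to 413, 617, 537 and 495 CPM in shFos kidneys. In liver the sums were 331, 728, 1540.2 and 747 CPM in NT and 652, 775, 486 and 466 CPM in shFos libraries. Among the NT kidneys the lowest is NT 4, as for the immunoproteasome genes, but among the NT livers NT 3 has the highest sum and NT 1 the lowest. Clec4f, a Kupffer cell gene, was near 0 in kidney. Fewer cells of a type and less RNA per cell cannot be told apart in such tissue RNA, and the part of leukocytes in the result was not tested.

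Ratios within a library need no scaling between libraries. The ratio of Psmb9 to the Psmb6 it replaces, per length, was 7.91%, 18.2%, 8.98% and 2.72% in NT kidneys and 6.31%, 39.8%, 11.9% and 4.75% in NT livers. On the log2 scale its mean was -3.70 ± 1.13 (SD, n = 4) in NT kidney, -3.84 ± 0.48 in shFos kidney, -3.19 ± 1.36 in NT liver and -2.89 ± 0.36 in shFos liver. The group means differ by less than the SD of either NT group, and every library has more of the constitutive transcript. The means of shFos kidney and shFos liver lie further apart than the SD of either of these groups. Psmb10 to Psmb7 had a mean of -1.75 ± 0.82 in NT kidney, -2.30 ± 0.31 in shFos kidney, -1.02 ± 0.63 in NT liver and -0.88 ± 0.20 in shFos liver. Psmb8 to Psmb5 had -1.44 ± 0.96, -1.69 ± 0.35, -0.55 ± 0.93 and -0.45 ± 0.36 in the same order. It exceeded 0, more of the inducible transcript, in liver NT 2 (0.61) and barely in liver shFos 2 (0.01).

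For the activators, Psme1 to Psme3 separated the tissues without overlap. It was 0.99, 1.69, 1.20 and 0.89 in NT kidneys and 2.30, 3.03, 2.11 and 1.95 in NT livers. Group means were 1.19 ± 0.35 in NT kidney, 0.75 ± 0.21 in shFos kidney, 2.35 ± 0.48 in NT liver and 2.33 ± 0.04 in shFos liver. Psme2 to Psme3 had 0.46 ± 0.35, 0.22 ± 0.26, 1.53 ± 0.56 and 1.86 ± 0.13. In both ratios each liver was above each kidney, for Psme2 by a small margin between liver NT 4 (0.96) and kidney NT 2 (0.95).

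**Figure D4:**
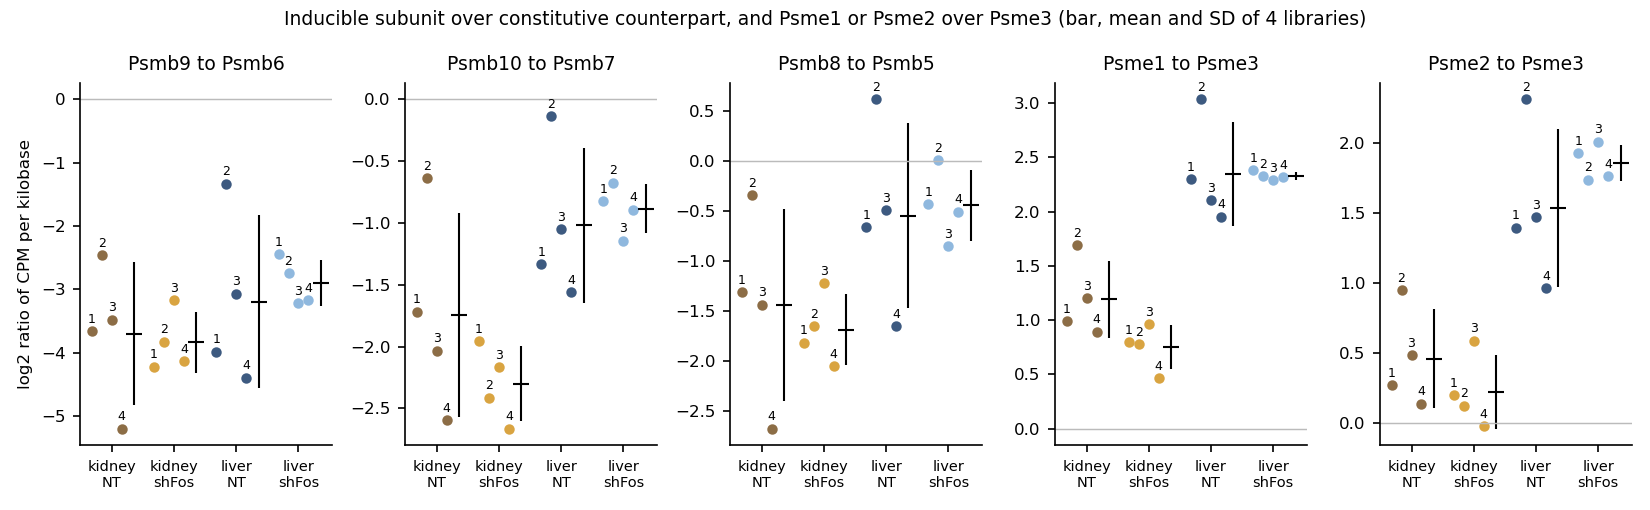
Log2 ratio of CPM per kilobase within each library (y axis) for 3 inducible catalytic genes over their constitutive counterparts and for Psme1 and Psme2 over Psme3, in the 4 groups (x axis), with replicate numbers above the points and a bar for the mean and SD (n = 4). The ratios over Psme3 are higher in every liver than in every kidney, and the catalytic ratios spread most among NT libraries.

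shFos and NT kidneys were compared to ask what the vector against Fos does to proteasome transcripts. No member was called by edgeR within kidney, and 4 were called higher in its fit of all 16 libraries (3.83% of all genes were): Psme4 (adjusted p = 0.0305), Psmd5 (0.0357), Psmc6 (0.0382) and Psmd11 (0.0416). Of 48 members tested, 33 had a positive and 15 a negative log2 fold change, with a median of 0.07 where all genes had 0.00. With upper-quartile scaling the members' median was 0.01 and that of all genes -0.05. Within kidney edgeR called 0 members and 0 of 14892 genes (0%). At an unadjusted p under 0.05, 11 members were higher in shFos (17.1% of all genes were) and 0 lower (14.9% of all genes were). With upper-quartile scaling 8 were higher (13.2%) and 1 lower (18.1%). DESeq2 called 5 members higher (11.4% of the genes it tested): Psmc1, Psmc6, Psmd5, Psmd11 and Psme4. In 6 members each shFos kidney was above each NT kidney (9.9% of all genes), and in 0 members below (7.29%).

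Psmd5, a chaperone of the base, had the smallest p. It was at 33.7, 29.3, 32.0 and 32.0 CPM in NT kidneys and at 40.2, 43.1, 43.7 and 41.9 CPM in shFos kidneys. The groups do not overlap (log2 fold change 0.42, SE 0.08, adjusted p = 0.0650, range over the alternatives 0.000359 to 0.190; 0.23 with the offset for GC content and length). Psmd11 was at 45.5, 41.8, 44.3 and 42.6 CPM in NT and at 51.8, 55.5, 54.9 and 57.4 CPM in shFos kidneys. These groups do not overlap either (0.34, SE 0.07, adjusted p = 0.0650, range 0.00185 to 0.190; 0.26 with the offset). Psme4 was at 87.8, 73.6, 83.2 and 72.8 CPM in NT and at 90.6, 116, 126 and 149 CPM in shFos kidneys. Here shFos 1 lies just above the NT group and the other 3 well above it (0.61, SE 0.15, adjusted p = 0.0650, range 0.00501 to 0.236; 0.35 with the offset).

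Psmc6, an ATPase of the base, was at 51.4, 42.1, 52.6 and 51.9 CPM in NT and at 53.2, 63.8, 81.7 and 81.7 CPM in shFos kidneys, again with shFos 1 next to the NT group (0.51, SE 0.15, adjusted p = 0.0750; 0.29 with the offset). Among the constitutive catalytic genes Psmb7 was at 56.8, 54.2, 61.2 and 63.7 CPM in NT and at 58.9, 76.0, 80.5 and 82.8 CPM in shFos kidneys. Only shFos 1 lies inside the NT range (0.35, SE 0.12, adjusted p = 0.0942; 0.36 with the offset). Psmb5 (0.06, SE 0.11, adjusted p = 0.752) had -0.00 with upper-quartile scaling and 0.33 with the offset, and Psmb6 (-0.06, SE 0.08, adjusted p = 0.646) turned to 0.20 with the offset, where all 3 catalytic genes were higher at an unadjusted p. By class, the unadjusted differences toward more RNA were found in 3 of 6 ATPases, 3 of 11 other regulatory subunits, 2 of 7 alpha ring genes, and 1 each of the catalytic genes, the base chaperones and the activators. Structural beta genes and core chaperones had none.

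More members were called without kidney shFos 1. It was the lowest of the 4 shFos kidneys in 33 of 48 members (68.8%, where 34.8% of all genes had it lowest), and it had 18079 genes with a count where the other shFos kidneys had 17417 to 17598. Without it edgeR called 11 members higher (12.6% of all genes were): Psma1, Psma3, Psmb7, Psmc1, Psmc6, Psmd1, Psmd5, Psmd6, Psmd11, Psmd14 and Psme4. Base composition also moved with the difference. The 11 members higher at an unadjusted p had a median GC content of 45.1% and the other members 51.6%, as genes higher in shFos kidneys had 46.1% and genes lower had 54.7% among all genes. With the offset for GC content and length, 14 members were higher at an unadjusted p (14.6% of all genes) and 1, Psmf1, was lower (13.0%). With this offset 0 were called by edgeR and the members' median was 0.12. Without kidney shFos 3, 6 members were higher at an unadjusted p (12.6% of all genes), 1 was lower (10.6%), 0 were called and the median was 0.01. The count higher was also 6 without kidney shFos 4 (11.9%) and with the replicate block (13.1%), and 7 without kidney NT 2 (12.2%). That block joins NT and shFos kidneys by replicate number, although the numbers did not pair them. What part base composition has in the single genes was not tested.

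The 5 immunoproteasome genes were all on the other side of 0 in kidney, with wide errors. Psme1 had -0.33 (SE 0.17, adjusted p = 0.219), Psmb10 -0.36 (SE 0.33, adjusted p = 0.476), Psmb9 -0.43 (SE 0.49, adjusted p = 0.568), Psmb8 -0.35 (SE 0.42, adjusted p = 0.591) and Psme2 -0.12 (SE 0.18, adjusted p = 0.679). The sign of 4 of them turned when kidney NT 2 was left out. Without it Psmb8 had 0.16, Psmb9 0.14, Psmb10 0.09, Psme2 0.06 and Psme1 -0.15. With the offset for GC content and length Psme1 had -0.13, Psmb10 -0.12, Psmb9 -0.23, Psmb8 -0.14 and Psme2 0.03. Other members lower in shFos kidney with the smallest p were Psmd4, a ubiquitin receptor (-0.20, SE 0.12, adjusted p = 0.257; -0.04 with the offset), and the core chaperone Psmg3 (-0.15, SE 0.13, adjusted p = 0.464; 0.12 with the offset). Psme3 had 0.14 (SE 0.09, adjusted p = 0.286), Psmf1 -0.07 (SE 0.07, adjusted p = 0.547; -0.16 with the offset) and Psmc3ip 0.19 (SE 0.20, adjusted p = 0.531). Psme2b, at 0.02 (SE 0.25, adjusted p = 0.957), turned to -0.04 with upper-quartile scaling.

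In liver, shFos and NT were compared for the same purpose, and no member was called. Of 48 members tested, 14 had a positive and 34 a negative log2 fold change, with a median of -0.07 where all genes had -0.01. The members' median was -0.10 to -0.04 with a library left out. edgeR called 0 members and 0 of 13144 genes (0%), and DESeq2 called 0 members, where it called 0.141% of the genes it tested higher. At an unadjusted p under 0.05 there were 0 members higher (3.6% of all genes) and 0 lower (3.23%). Without liver NT 2 there were 4 higher (3.98% of all genes), and without liver NT 3 there were 3 lower (4.15%). Groups did not overlap in 0 members higher in shFos (3.23% of all genes) and in 0 lower (1.33%).

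Psmd9, a base chaperone with an AP-1 match in its window, had the smallest p in liver. It was at 40.0, 50.9, 36.9 and 61.7 CPM in NT and at 36.8, 37.0, 36.7 and 41.7 CPM in shFos livers. NT 2 and NT 4 are high, and the others overlap with shFos (-0.33, SE 0.16, adjusted p = 0.727, range over the alternatives 0.527 to 0.956). In kidney, where each shFos library had less Fos than each NT library, Psmd9 had -0.04 (SE 0.14, adjusted p = 0.859). Psmb5, with the other AP-1 match, had -0.02 in liver (SE 0.10, adjusted p = 0.978) and 0.06 in kidney (SE 0.11, adjusted p = 0.752). The values that follow are again those of liver. Psmd10 had -0.30 (SE 0.16, adjusted p = 0.728), the lid subunit Psmd13 -0.20 (SE 0.13, adjusted p = 0.749) and the core chaperone Psmg1 0.21 (SE 0.13, adjusted p = 0.739). Psmd14, the deubiquitinase of the lid, had 0.10 (SE 0.09, adjusted p = 0.809), and Psme2b had 0.20 (SE 0.21, adjusted p = 0.822). Psmb6 had -0.05 (SE 0.10, adjusted p = 0.913) and Psmb7 -0.01 (SE 0.10, adjusted p = 0.989). Psme3 had -0.07 (SE 0.11, adjusted p = 0.879), Psme4 -0.08 (SE 0.12, adjusted p = 0.888) and Psmf1 0.04 (SE 0.12, adjusted p = 0.948). The immunoproteasome genes lay between -0.25 (Psmb9, SE 0.61, adjusted p = 0.932) and 0.20 (Psme2, SE 0.21, adjusted p = 0.823). Without liver NT 2, Psmb9 had 0.83, Psmb8 0.44, Psmb10 0.44, Psme2 0.44 and Psme1 0.07, none of them called. Psma8, with 10 to 48 counts per liver, had -0.22 (SE 0.52, adjusted p = 0.931).

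**Figure D5:**
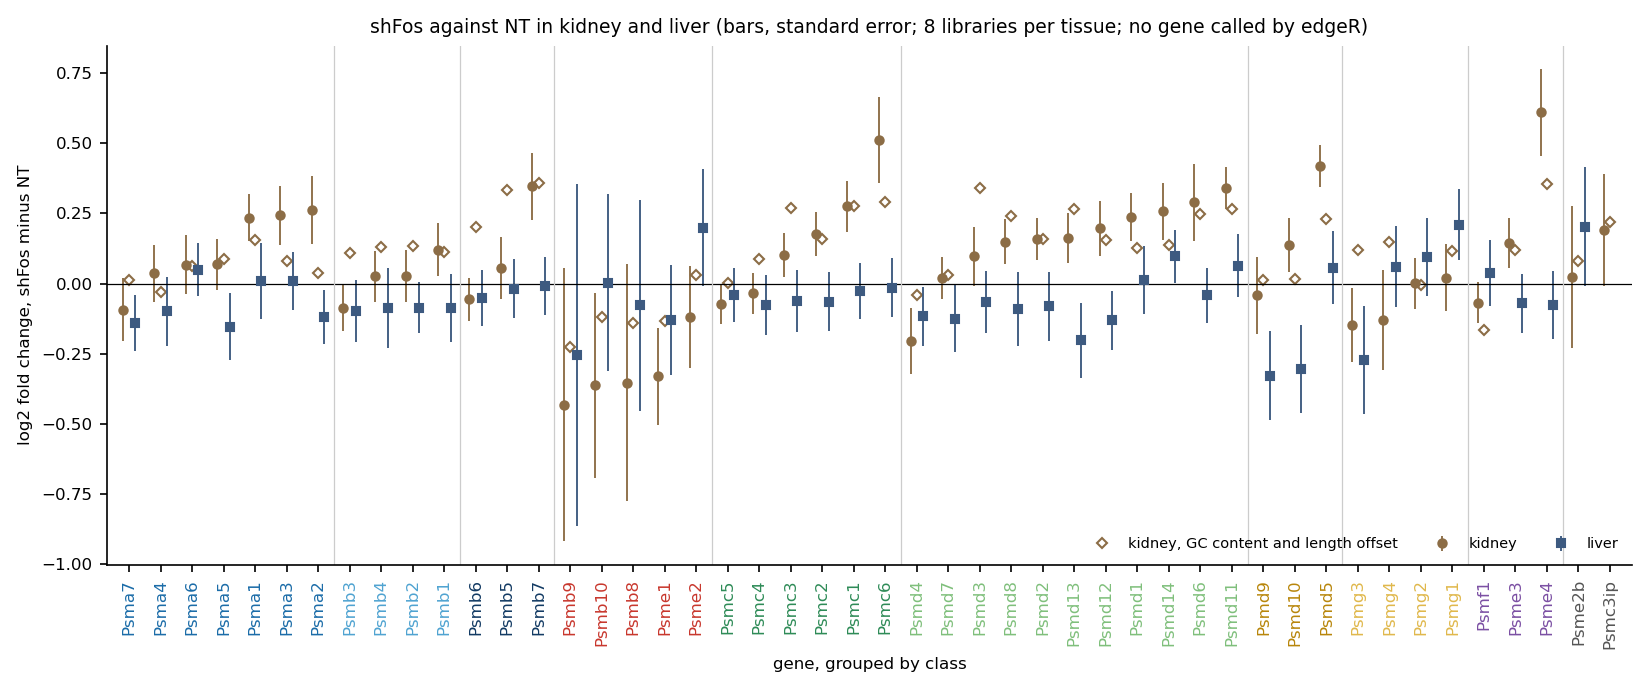
Log2 fold change of shFos minus NT (y axis) for the 48 members tested in kidney (circles), the same with the offset for GC content and length (open diamonds) and in liver (squares), by class on the x axis, with bars for the standard error (4 libraries a group). Psme4 (0.61), Psmc6 (0.51) and Psmd5 (0.42) are highest in kidney, Psmb8, Psmb9 and Psmb10 are lowest with the longest bars, and the 5 immunoproteasome genes move toward 0 with the offset (Psme2 past it), and no point is called by edgeR within its tissue.

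The difference between the tissues in the effect of shFos was tested itself, as kidney effect minus liver effect. Of 49 members tested, 34 had a positive and 15 a negative difference, with a median of 0.14 where all genes had 0.00. The members' median was 0.09 to 0.21 with a library left out. edgeR called 0 members and 0 of 15421 genes (0%). At an unadjusted p under 0.05, 9 members were positive (8.22% of all genes) and 0 negative (7.85%). DESeq2 called 1 member positive (2.06% of the genes it tested), Psme4. Psme4 had a difference of 0.67 (SE 0.20, adjusted p = 0.188; DESeq2 adjusted p = 0.0489, in a range over the alternatives of 0.0114 to 0.326). Psmc6 had 0.50 (SE 0.18, adjusted p = 0.219) and Psmd10 0.43 (SE 0.18, adjusted p = 0.257). On the negative side Psmg1 had -0.21 (SE 0.17, adjusted p = 0.589; -0.03 with the offset for GC content and length), Psme2 -0.33 (SE 0.29, adjusted p = 0.599; -0.10 with the offset) and Psmg4 -0.21 (SE 0.22, adjusted p = 0.689; 0.16 with the offset). Without kidney shFos 1 edgeR called 4 members positive (3.92% of all genes): Psma2, Psmb7, Psmc6 and Psme4. Without both NT libraries numbered 4, a choice made after seeing the data, it called 0 and 14 were positive at an unadjusted p (10.4% of all genes). That count was 15 with the offset (8.24%) and 4 with upper-quartile scaling (6.54%), as it was without liver NT 1 (8.24%), liver NT 2 (9.16%), liver shFos 3 (6.81%) or liver shFos 4 (7.55%).

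Other genes of the ubiquitin and proteasome pathway, a list of 35 partners that holds ubiquitin genes, shuttle receptors, assembly factors and ligases, were examined beside the members. In kidney 16 of 35 were higher in shFos at an unadjusted p (17.1% of all genes were) and 1 was lower (14.9%), Ufd1 (-0.33, SE 0.11, adjusted p = 0.0962). With the offset for GC content and length 11 were higher (14.6% of all genes) and 4 lower (13.0%). edgeR called 0 and DESeq2 10 (11.4% of the genes it tested), and in 11 each shFos kidney was above each NT kidney (9.9% of all genes). Ddi2, a protease that activates the transcription factor Nfe2l1, which drives proteasome genes, was at 5.28, 4.97, 8.24 and 6.67 CPM in NT and at 8.35, 12.6, 14.6 and 12.6 CPM in shFos kidneys. The lowest shFos value, in library 1, is just above the highest NT value (0.95, SE 0.22, adjusted p = 0.0650, range over the alternatives 0.00315 to 0.190). Ube3c, a ligase bound to the proteasome, had 0.67 (SE 0.16, adjusted p = 0.0650, range 0.00461 to 0.190). The median of the list was 0.20. In liver 0 of the 35 had an unadjusted p under 0.05, 0 were called by edgeR or DESeq2, and the median was 0.02. The smallest p there were those of the shuttle receptor Ubqln2 (-0.15, SE 0.09, adjusted p = 0.737), of Rps27a, a ubiquitin fusion gene (-0.35, SE 0.23, adjusted p = 0.749), and of the ubiquitin receptor Adrm1 (-0.22, SE 0.15, adjusted p = 0.750). The interaction had 8 partners positive at an unadjusted p (8.22% of all genes), 0 called by edgeR and 3 by DESeq2 (2.06%). By tissue, with TMM scaling, on which the direction depends, 21 partners were called lower in NT kidney (30.2% of all genes) and 1 higher (34.5%), Fbxo7 (0.78, SE 0.12, adjusted p = 3.80e-05), with Ddi2 at -2.72 (SE 0.20, adjusted p = 5.37e-09).

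Of the 12 interferon and class I genes tested, 1 was lower in shFos kidney at an unadjusted p (14.9% of all genes were) and 0 were higher (17.1%). The 1 lower was Nlrc5, an activator of class I and immunoproteasome genes (-0.95, SE 0.42, adjusted p = 0.153). edgeR and DESeq2 called 0 of the 12. Tap1 had -0.75 (SE 0.41, adjusted p = 0.239) and Tapbp, which loads class I with peptide, -0.36 (SE 0.20, adjusted p = 0.245). Without kidney NT 2, Nlrc5 had -0.42, Tap1 -0.15 and Tapbp -0.12. In liver 0 of them had an unadjusted p under 0.05 and edgeR and DESeq2 called 0. Ifngr2 had -0.30 (SE 0.22, adjusted p = 0.767), Ifngr1 -0.21 (SE 0.17, adjusted p = 0.778) and Tap1 -0.43 (SE 0.51, adjusted p = 0.843). By tissue, with TMM scaling, 8 were called lower in NT kidney (30.2% of all genes were) and 1 higher (34.5%), with a median of -1.20. The 1 higher was Ifngr1, a subunit of the interferon-gamma receptor (0.34, SE 0.14, adjusted p = 0.0448; 0.29 with an adjusted p of 0.0713, not called, with the offset for GC content and length).

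Markers of cell types were counted in the same way. At an unadjusted p (17.1% of all genes higher and 14.9% lower), 4 of 5 endothelial markers were higher in shFos kidney (median 0.31, Pecam1 the most abundant), 3 of 8 tubule and podocyte markers were higher and 1 lower, 2 of 20 leukocyte markers were lower, and 1 of 7 hepatocyte markers was higher and 2 lower. edgeR called 0 of them, and DESeq2 called 2 endothelial, 3 tubule and podocyte and 1 hepatocyte marker higher and 1 leukocyte marker lower. Of the genes it tested, DESeq2 called 11.4% higher and 8.3% lower. In liver 1 endothelial, 1 hepatocyte and 1 leukocyte marker were higher at an unadjusted p (3.6% of all genes) and 1 leukocyte marker was lower (3.23%). There edgeR and DESeq2 called 0 of the markers. The part of these markers in the members' differences was not tested.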

How the data were processed

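The authors trimmed reads with Trimmomatic 0.39, aligned them to mm10 with HISAT2 2.2.1 and counted them per gene symbol with HTSeq 0.12.4, and the deposited values are raw counts. Of the symbols, 98.2% matched GENCODE M21, which gave positions, lengths and GC content. In R 4.3.3, edgeR 4.0.16 (filterByExpr with a minimum count of 10, TMM, robust dispersion, quasi-likelihood test) fitted all genes, within each tissue for shFos against NT and over the 16 libraries for the interaction and for the tissues. P-values were adjusted by Benjamini and Hochberg over all genes tested. The SE is the log2 fold change divided by the root of F. Both the members and the lists were chosen with earlier results of these data known.

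Genes named are Fos, all members of the immunoproteasome, constitutive catalytic, tissue-restricted, activator and look-alike classes, the 3 members with the smallest p per comparison and direction, up to 3 genes per tissue of the partner and interferon lists, and the most abundant marker of each list. Other genes were named after their values were seen. Alternatives were DESeq2 1.42.0, upper-quartile scaling, no filter, each library left out, the replicate block, an offset for GC content and length (lowess, span 0.3), both together, a fit of 16 libraries, library totals, NT libraries alone and the longest transcript. Replicate numbers paired NT kidneys with NT livers for 3 of 4 libraries (r 0.361 to 0.395 over genes, and 0.154 for number 1) and did not pair NT with shFos. For shFos kidneys and livers r was 0.027 to 0.166, with 2 of 4 libraries closest to their own number.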

Additional observations from a re-analysis of the deposited data

Results flagged for a closer look

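Each library was compared with the other 3 of its group by the size of the gap relative to the range. This was done for the genes named, in CPM, and for the log2 ratios within a library. Of 176 groups of 4 values, 14 had such a library, where chance gives 8.8 at 1 in 20. All 14 were groups of CPM values, and none was of a ratio.

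Psmb9 was at 111 in liver NT 2, with the others at 12.5 to 28.9. Tap1 was at 67.7 in kidney NT 2, with the others at 17.7 to 25.1. Tap1 was at 161 in liver NT 2, with the others at 30.5 to 43.5. Tapbp was at 295 in liver NT 2, with the others at 136 to 144.

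Psmc6 was at 42.1 in kidney NT 2, with the others at 51.4 to 52.6. Psmd3 was at 130.4 in liver NT 3, with the others at 155 to 157. Psmd3 was at 125 in liver shFos 3, with the others at 149 to 153. Psmd9 was at 35.8 in kidney NT 4, with the others at 22.6 to 24.7. Psmd9 was at 41.7 in liver shFos 4, with the others at 36.7 to 37.0.

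Psme3 was at 93.2 in kidney NT 1, with the others at 81.9 to 83.7. Psmf1 was at 33.6 in liver shFos 2, with the others at 41.2 to 41.7. Psmg4 was at 11.7 in kidney shFos 3, with the others at 7.37 to 7.80. Adrm1 was at 86.1 in kidney NT 4, with the others at 64.7 to 67.3. Adrm1 was at 66.1 in kidney shFos 2, with the others at 60.7 to 61.1.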

How the results depend on the processing

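There were 4 libraries a group, and small differences can go uncalled. Tissue RNA mixes cell types, and counts were made without regard to strand. Differences between tissues depend on the scaling. The cause of the changes below was not tested.

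DESeq2 called 5 members higher in shFos kidney (11.4% of the genes it tested) and 1 positive in the interaction (2.06% of those it tested there). It gave liver Psmb10 -0.00339. The fit of all 16 libraries called 4 members higher in kidney (3.83% of all genes) and gave liver Psmb7 0.00268.

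With upper-quartile scaling kidney Psmb5 had -0.00195 and Psme2b -0.0357. In the tissue comparison 2 members were called higher (40.2% of all genes were) and 41 lower (24.5%). The median was then -0.67 and Psme3 had 0.00547. With library totals 24 members were called higher (75.2% of all genes were) and 2 lower (9.79%), and the median was 0.22. Fos then had 1.11 and Psmd3 1.15. Psmb5 had 0.62, Psmb6 0.24, Psmb7 0.0851, Psmc2 0.0314, Psme3 0.89, Psme4 0.49 and Psmf1 0.55.

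With the GC content and length offset kidney Psmb6 had 0.20, Psme2 0.0326 and Psmg3 0.12, and liver Psmb10 -0.00364. The interaction median was 0.23 and Psmg4 had 0.16. Between tissues Fos had -0.0150 and Psmd3 -0.23.

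Within a tissue the replicate block joins NT and shFos libraries by number, although the numbers did not pair them. With the replicate block liver Psmb8 had 0.0861 and Psmb9 0.26. With the replicate block and the offset liver Psmb8 had 0.0662 and Psmb9 0.23, and kidney Psmb10 0.00339, Psmb6 0.20, Psme2 0.0547 and Psmg3 0.12. The interaction median was 0.23 and Psmg4 had 0.13, and tissue Psmd3 had -0.23. With the longest transcript the log2 ratio of Psme2 to Psme3 in shFos liver was 1.73.

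With each library left out in turn, 0 to 11 members were called higher in shFos kidney and 0 to 4 positive in the interaction. In kidney Psmb5 had -0.00146 to 0.10, Psmb8 -0.61 to 0.16, Psmb9 -0.73 to 0.14, Psmb10 -0.57 to 0.0859, Psme2 -0.24 to 0.0588 and Psme2b -0.15 to 0.27. In liver Psma8 had -0.59 to 0.26, Psmb5 -0.0600 to 0.0524, Psmb7 -0.0757 to 0.0374, Psmb8 -0.32 to 0.44, Psmb9 -0.57 to 0.83, Psmb10 -0.21 to 0.44, Psme1 -0.25 to 0.0653, Psmf1 -0.0314 to 0.11 and Tap1 -0.68 to 0.49. Liver differences that kept their sign but moved were those of Psmd9 (-0.43 to -0.19), Psmd13 (-0.29 to -0.0956) and Adrm1 (-0.31 to -0.14). Others were Rps27a (-0.49 to -0.21), Ifngr1 (-0.33 to -0.0670) and Ifngr2 (-0.45 to -0.15). Between tissues Fos had -0.14 to 0.34.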
